A study of Mus musculus with 4 samples.

Results

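The 10 genes described here encode parts of the T cell receptor complex and the first steps of its signal: Cd3d, Cd3e, Cd3g, Cd247, Cd4, Lck, Zap70, Lat, Cd5 and Ptprc. They were chosen by name in the expression tables, and all 10 were found among 14193 named genes. Each gene was represented by the transcript row of highest mean among the 17 rows these genes have. The tables come from RNA-seq of regulatory T (Treg) cells, the Foxp3-positive T cells that hold immune responses in check, sorted from the spleens of C57BL/6 mice. There were 2 wild-type (WT) libraries and 2 libraries from mice in which Nsd2, a histone H3 lysine 36 methyltransferase, was conditionally knocked out (cKO) in Treg cells. Every library pooled the RNA of 3 or more mice, and values of single animals cannot be seen. The sources used here do not give the driver of the deletion, the age and sex of the animals or the gates of the sort. Values are RPKM, reads scaled by transcript length and library size, so that levels can be set side by side between genes. This scaling does not remove differences between libraries that go with base composition, which are given below.

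The T cell receptor binds peptide on MHC molecules through its alpha and beta chains, which have no signalling parts of their own. Signals pass through the CD3 gamma, delta, epsilon and zeta chains, whose cytoplasmic tails carry tyrosine motifs. The kinase Lck, brought in by the coreceptor CD4, phosphorylates these motifs, the kinase ZAP-70 docks on them, and ZAP-70 then phosphorylates the adaptor LAT. The phosphatase CD45, encoded by Ptprc, keeps Lck ready to act, and CD5 dampens the signal. Treg cells need this pathway for their development in the thymus and for their suppressive function.

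The 250 bases before the start are shown for 5 members, from RefSeq on GRCm38.p6. Of the 10 members, 9 had at least 1 such window, 13 windows in all, and those of Cd3e, Lat, Zap70 and Ptprc were searched and are not printed. Lck is shown with both of its starts because the tables hold rows for both, Cd3g and Cd3d because they lie next to each other, and Cd247 and Cd5 because their groups did not overlap. Capitals mark 7 short motifs on either strand: the TATA box written TATAAA, the core of RUNX sites written TGTGGT, an E-box written CAGGTG, a GC box written GGGCGG, the cores of ETS sites written CCGGAAG or, in another form, CAGGAAG, and the cyclic AMP response element written TGACGTCA. All 6 are written 5′ to 3′ on the strand of the gene.
Lck upstream start: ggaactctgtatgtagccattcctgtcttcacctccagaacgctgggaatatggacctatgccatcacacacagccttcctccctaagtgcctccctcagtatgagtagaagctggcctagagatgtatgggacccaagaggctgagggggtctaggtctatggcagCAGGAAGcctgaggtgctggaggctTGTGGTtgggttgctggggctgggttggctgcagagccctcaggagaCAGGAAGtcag
Lck downstream start: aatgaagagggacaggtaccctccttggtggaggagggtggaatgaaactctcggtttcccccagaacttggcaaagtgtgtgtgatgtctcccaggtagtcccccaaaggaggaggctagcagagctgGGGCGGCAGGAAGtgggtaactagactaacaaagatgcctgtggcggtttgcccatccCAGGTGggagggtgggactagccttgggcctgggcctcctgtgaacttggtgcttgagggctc
Cd3g: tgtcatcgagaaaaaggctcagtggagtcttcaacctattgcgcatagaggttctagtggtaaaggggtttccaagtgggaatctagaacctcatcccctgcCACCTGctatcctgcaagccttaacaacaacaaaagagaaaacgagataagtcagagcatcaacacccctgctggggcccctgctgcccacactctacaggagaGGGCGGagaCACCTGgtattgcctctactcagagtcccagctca
Cd3d: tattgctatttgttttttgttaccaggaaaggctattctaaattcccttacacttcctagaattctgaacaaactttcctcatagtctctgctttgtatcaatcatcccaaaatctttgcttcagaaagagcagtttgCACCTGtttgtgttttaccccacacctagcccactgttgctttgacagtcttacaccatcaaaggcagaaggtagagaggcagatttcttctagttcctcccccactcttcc
Cd247: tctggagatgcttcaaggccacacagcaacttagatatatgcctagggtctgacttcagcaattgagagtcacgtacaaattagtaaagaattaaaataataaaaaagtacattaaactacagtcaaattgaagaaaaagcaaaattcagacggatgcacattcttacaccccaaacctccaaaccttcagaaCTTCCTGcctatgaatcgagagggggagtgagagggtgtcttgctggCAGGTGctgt
Cd5: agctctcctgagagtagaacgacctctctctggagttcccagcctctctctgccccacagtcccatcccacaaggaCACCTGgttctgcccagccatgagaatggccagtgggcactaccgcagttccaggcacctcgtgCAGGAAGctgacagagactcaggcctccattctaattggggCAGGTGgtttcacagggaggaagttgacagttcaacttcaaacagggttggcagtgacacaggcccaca

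The Lck windows lie at chr4:129573642-129573891 and chr4:129558373-129558622 on the minus strand, and the Cd5 window at chr19:10738975-10739224, also minus. Those of Cd3g and Cd3d are chr9:44980432-44980681 (minus) and chr9:44981536-44981785 (plus), and that of Cd247 is chr1:165788431-165788680 (plus). CAGGAAG was found in 8 of the 13 member windows and in 10.8% of all 32817 windows of this length in the table. CAGGTG was found in 7 of the 13 and in 17.2% of all windows. Both starts of Lck hold CAGGAAG, which the Cd3g and Cd3d windows do not. In the downstream Lck window a GGGCGG and a CAGGAAG follow each other without a gap. CCGGAAG was in 0 of the 13 windows and in 6.9% of all. The share of all windows was 12.4% for TATAAA (1 member window), 14.04% for TGTGGT (2), 32.7% for GGGCGG (2) and 1.55% for TGACGTCA (1). The 2 Ptprc windows overlap and hold the same CAGGAAG match, which is counted in both. The 13 are therefore not separate sequences, and a match describes letters only.

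The members were among the more abundant transcripts of these cells. Their means over the 4 libraries ran from 104 RPKM for Cd247 to 330 RPKM for Lat, a 3.18-fold range, and they ranked from 94th to 402nd of the 14193 genes. Together they made up 0.515% of the RPKM sum. From highest to lowest the order was Lat, Lck, Ptprc, Cd3e, Cd3g, Cd5, Cd4, Cd3d, Zap70 and Cd247. Neighbours in this order overlapped in their ranges over the 4 libraries, except Cd5 above Cd4, Cd4 above Cd3d and Zap70 above Cd247. Among the first 6, neighbouring places are therefore not resolved beyond the spread between libraries. At about 3191 to 27823 reads for a member in a library, counting alone gave an SD of at most 1.77% of a value.

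**Figure D1:**
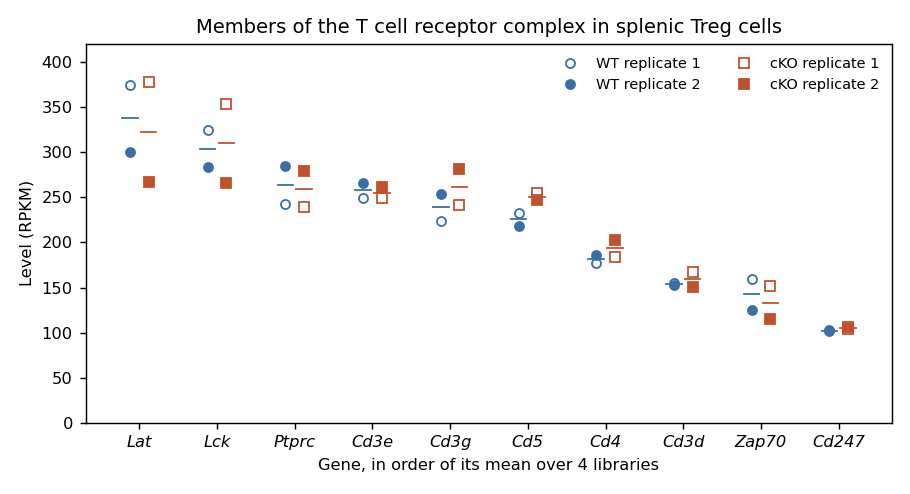
Level of each of the 10 genes in RPKM (y axis) in the 4 libraries (WT circles, cKO squares, replicate 1 open, replicate 2 filled), with short bars at the mean of each genotype. Lat, Lck, Zap70 and Cd3d are lower in both libraries numbered 2 than in both numbered 1, and Ptprc, Cd3g, Cd3e and Cd4 are higher. Only Cd247 and Cd5 have both cKO values above both WT values.

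The targeted gene and the markers of the cells were checked first. Nsd2 measured 6.82 and 7.44 RPKM in the WT pools and 3.46 and 4.27 RPKM in the cKO pools, 54.2% of the WT mean, with groups that did not overlap. Its log2 fold change was -0.74 (SE 0.15, limma adjusted p = 0.9998), and which exons were removed is not in the labels. Foxp3 measured 144 and 128 RPKM in the WT pools and 145 and 113 RPKM in the cKO pools, and the summed level of 6 Treg markers ran from 634 to 668 RPKM over the 4 libraries. The depth given by the steps between low values ran from 19087000 to 21201000 reads per library.

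No difference between the genotypes in these 10 genes passed the test over all genes. Of the 10 members, 0 had an adjusted p under 0.05 in limma on log2(RPKM + 1), where 0% of the 10688 genes tested were called. Before adjustment, 0 of the 10 members and 332 of all genes were under 0.05. Every member had an adjusted p of 0.9998, and the lowest unadjusted p was 0.262, for Cd5. The members' log2 fold changes ran from -0.10 to 0.15 with a median of 0.03, and 6 of 10 were above 0. Over all genes tested the median was also 0.03 and 59.2% were above 0. For 2 members, Cd247 and Cd5, both cKO values exceeded both WT values, against 17.4% of all genes, and they lay below for 0 members, against 9.06% of all genes. Taking both directions, groups did not overlap for 26.4% of all genes. The difference in means was smaller than the larger SD for the other 8 members.

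The 3 linked CD3 genes sit together on mouse chromosome 9 (GRCm38), where Cd3g (44969572 to 44980431) and Cd3d (44981786 to 44987339) point away from each other with 1354 bp between them. Cd3e (44998740 to 45009627) follows after another 11400 bp. Cd3e, whose chain pairs with both of the others, measured 249.3 and 266 RPKM in the WT pools and 248.9 and 261 RPKM in the cKO pools. These values overlapped, and the means were 258 ± 12.05 and 255 ± 8.50 RPKM (SD, n = 2), a log2 fold change of -0.02 with a 95% interval of -0.32 to 0.29. A gene on the opposite strand, Gm48719, overlaps 135 bases of the Cd3e exons, and reads of the pair cannot be told apart if strand was not used. Cd3g measured 224 and 254 RPKM in the WT pools and 242 and 282 RPKM in the cKO pools, so that its highest value was in cKO replicate 2 and its lowest in WT replicate 1. Its cKO mean was 109.5% of that in WT (log2 fold change 0.13, interval -0.23 to 0.49), and the value was 0.02 without cKO replicate 2 and 0.04 without WT replicate 1. Cd3d measured 155 and 152 RPKM in the WT pools and 167 and 151 RPKM in the cKO pools. The cKO values of Cd3d lay on both sides of the WT values (log2 fold change 0.05, interval -0.27 to 0.36).

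Although the 3 genes are neighbours, Cd3d differed in level from Cd3e and Cd3g. Cd3d was the lowest of them in every library, and its highest value (167 RPKM) lay under the lowest value of Cd3g (224 RPKM). These levels rest on annotated lengths, 1617 bases for Cd3d and 1023 for Cd3g, and use of the full lengths was not tested. Cd3d had about 4889 and 4705 reads in WT and 5183 and 5178 in cKO. Cd3g had about 4459 and 4962 in WT and 4752 and 6109 in cKO, so by reads neither led throughout. Within a library Cd3e was 1.49 to 1.75 times Cd3d and Cd3g was 1.44 to 1.86 times Cd3d. The ratio of Cd3e to Cd3g ran from 0.926 in cKO replicate 2 to 1.11 in WT replicate 1, so neither was the higher in all 4 libraries.

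Cd247 encodes the zeta chain, a dimer in the finished receptor, and lies on chromosome 1 (165788681 to 165877277). It measured 101.5 and 102.5 RPKM in the WT pools and 103.9 and 106.4 RPKM in the cKO pools. The cKO values were both above the WT values, but by little, at 103% of WT on average. At about 3191 reads in WT replicate 2, counting alone gave an SD of 1.77%. The step from 102.5 RPKM there to 103.9 RPKM in cKO replicate 1 was smaller than this SD. The log2 fold change was 0.04 (interval -0.25 to 0.33). Cd247 had the smallest spread of the members within WT, an SD of 0.645 RPKM. Cd3e stood at 2.40 to 2.60 times Cd247. A gene on the same strand, Gm16565, overlaps 198 bases of its exons. The rows of a gene's forms share exons, and the sources used here do not say how shared reads were divided. Levels of forms therefore cannot be taken as separate measurements. The row of the eta form, which ends in another last exon, measured 54.2 and 48.8 RPKM in the WT pools and 56.4 and 52.3 RPKM in the cKO pools. The zeta row was 1.84 to 2.10 times the eta row, and both libraries numbered 2 had the higher ratio.

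The receptor's own constant regions could be set beside these chains. Trac, the alpha constant region, measured 35.4 and 37.6 RPKM in the WT pools and 36.8 and 35.4 RPKM in the cKO pools. Trbc2 measured 126 and 118.5 RPKM in the WT pools and 116 and 118.4 RPKM in the cKO pools, both just below (log2 fold change -0.06, SE 0.12). Trbc1 measured 68.0 and 65.3 RPKM in the WT pools and 79.1 and 114 RPKM in the cKO pools, with the highest value in cKO replicate 2. Its log2 fold change of 0.50 (SE 0.19) had a p of 0.0429 before and 0.9998 after adjustment in limma, and without cKO replicate 2 it was 0.24. Trbc1 and Trbc2 are near-identical, and the sources used here do not say how reads that match both were divided, so both values are uncertain.

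Cd4 encodes the coreceptor that binds MHC class II and carries Lck (chromosome 6, 124864692 to 124888221). It measured 178 and 186 RPKM in the WT pools and 184 and 203 RPKM in the cKO pools. The highest value was in cKO replicate 2, and cKO replicate 1 lay between the WT values. On average cKO stood at 106% of WT (log2 fold change 0.09, interval -0.23 to 0.40), and the value was 0.02 without cKO replicate 2. Within a library Cd4 was 0.6999 to 0.778 times Cd3e. Of the genes of the CD8 coreceptor, Cd8b1 was at 5.22 to 6.91 RPKM and Cd8a at 0.149 to 0.394 RPKM, and Cd4 was 25.7 to 35.2 times Cd8b1.

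Lck, the kinase that phosphorylates the CD3 tails (chromosome 4, 129548344 to 129573641), measured 325 and 283 RPKM in the WT pools and 354 and 266 RPKM in the cKO pools. Its highest and its lowest value were both in cKO, and both libraries numbered 1 were above both numbered 2. WT averaged 304 ± 29.4 RPKM and cKO 310 ± 61.6 RPKM (SD, n = 2), with a log2 fold change of 0.02 and an interval of -0.43 to 0.46. The sign turned to -0.02 with median-of-ratios scaling and to -0.01 with upper quartile scaling, and leaving out single libraries gave -0.19 to 0.22.

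Lck has 3 rows, 1 with the upstream first exon and 2 that begin downstream. The upstream row was 1.02 to 1.05 times the row whose start the downstream window above precedes. It was 1.04 to 1.06 times the other downstream row, whose first exon starts 15250 bp away and which shares 11 exons with it. Since shared exons make up nearly all of both rows, this ratio does not give the use of each start.

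Zap70, the kinase that docks on phosphorylated CD3 tails (chromosome 1, 36761798 to 36782818), measured 159.7 and 125 RPKM in the WT pools and 151 and 115 RPKM in the cKO pools. Again both libraries numbered 1 were above both numbered 2, and the genotypes overlapped. On average cKO stood at 93.5% of WT (log2 fold change -0.10, interval -0.58 to 0.38). Without WT replicate 1 the value was 0.08 and without cKO replicate 2 it was 0.10. Lck was 2.03 to 2.34 times and Lat 2.31 to 2.495 times Zap70 within a library.

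Lat, the membrane adaptor that ZAP-70 phosphorylates (chromosome 7, 126363824 to 126369570), was the member of highest mean. It measured 375 and 301 RPKM in the WT pools and 378 and 267 RPKM in the cKO pools. The libraries numbered 1 differed by little between genotypes, as the values show, and both were far above those numbered 2. The means were 338 ± 52.4 and 322 ± 78.7 RPKM (SD, n = 2), a log2 fold change of -0.08 with an interval of -0.61 to 0.45, the widest of the 10. Without WT replicate 1 it was 0.08 and without cKO replicate 2 it was 0.17.

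Ptprc, the CD45 phosphatase (chromosome 1, 138062861 to 138175708), measured 243 and 285 RPKM in the WT pools and 239 and 279 RPKM in the cKO pools. Here both libraries numbered 2 were the higher ones, and within each number the genotypes lay close together. The log2 fold change was -0.03 (interval -0.40 to 0.35), and it was 0.09 without WT replicate 2 and 0.09 without cKO replicate 1. CD45 is made in forms that differ in 3 variable exons, 417 bases in all, which T cells skip or keep. The row that holds these exons was 0.953 to 0.964 times the row that lacks them, and the 4 libraries differed little in it. Shared exons make up most of both rows (5074 and 4702 bases long), so this ratio does not give the use of each form. The ratio of Lck to Ptprc was 1.34 and 1.48 in the libraries numbered 1 of WT and cKO, and 0.994 and 0.954 in those numbered 2.

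Cd5, a receptor that limits T cell receptor signals and whose level on T cells is known to follow the strength of those signals (chromosome 19, 10717116 to 10739002), had the largest difference among the members. It measured 232 and 219 RPKM in the WT pools and 255 and 247 RPKM in the cKO pools, so both cKO values were above both WT values. The means were 226 ± 9.82 and 251 ± 5.86 RPKM (SD, n = 2), so that cKO stood at 111% of WT. The log2 fold change was 0.15 (SE 0.12, interval -0.15 to 0.46), with a p of 0.262 before and 0.9998 after adjustment in limma. Leaving out single libraries gave 0.11 to 0.20. With median-of-ratios and with upper quartile scaling, Cd5 was the 1 member whose groups did not overlap, as those of Cd247 then did.

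**Figure D2:**
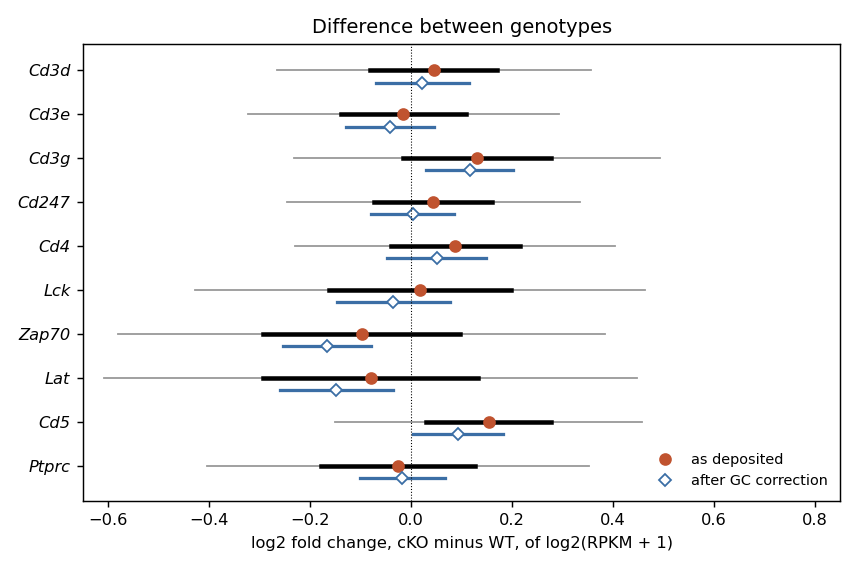
log2 fold change of each member, cKO minus WT, on the log2(RPKM + 1) scale (x axis). Filled circles are the values as deposited with 1 SE (thick) and the 95% interval (thin), and open diamonds are values after GC correction with 1 SE. All 10 intervals hold 0, and the SE of each member is smaller after the correction.

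For Ptprc, Cd3g, Lck, Lat, Zap70 and Cd3e, the 2 libraries of a genotype differed by more than the genotypes did. For the first 5 of these, the direction went with the base composition of the transcript. From replicate 1 to replicate 2 of WT, log2(RPKM + 1) differed by 0.23 for Ptprc and 0.18 for Cd3g, and by -0.35 for Zap70, -0.32 for Lat and -0.20 for Lck. In cKO the same differences were 0.22, 0.22, -0.39, -0.50 and -0.41. Ptprc had the lowest GC content of the 10 transcripts, 41.4%, and Cd3g the next, 47.1%. Lat (57.9%) and Zap70 (59.6%) had the highest. Cd3e, at 50.5%, had differences of 0.10 in WT and 0.07 in cKO, where the medians of all genes from 50% to 55% were -0.08 and -0.04. Cd4 (52.0%) had 0.07 and 0.14 and Cd247 (52.6%) 0.01 and 0.03, also above these medians. Cd3d (50.03%) had -0.03 and -0.14. Over the 10 members, the difference and the GC content had a Spearman rho of -0.92 in WT and -0.79 in cKO (Pearson r -0.91 and -0.80). These points share their libraries and are a description.

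The same gradient ran through the whole table. Over 10049 tested genes with a GC value, 94.0% of those tested, the Spearman rho was -0.69 in WT and -0.74 in cKO (Pearson r -0.64 and -0.69), across genes, which are not replicates. Genes under 45% GC had a median difference of 0.24 in WT and 0.30 in cKO, and genes at or above 55% had -0.21 and -0.23. The first 120 coding bases of Ptprc and Zap70, the members whose whole transcripts have the lowest and the highest GC content, are from the GENCODE M21 transcripts on GRCm38, with G and C in capitals. G and C make up 60 of these 120 bases in Ptprc, 50% against 41.4% in its whole transcript, and 79 in Zap70, 65.8% against 59.6%. The stretch of Ptprc is thus less extreme than the transcript it opens.
Ptprc: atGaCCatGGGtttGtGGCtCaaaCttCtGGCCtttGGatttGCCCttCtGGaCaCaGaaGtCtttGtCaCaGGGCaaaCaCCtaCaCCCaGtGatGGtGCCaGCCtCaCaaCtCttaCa
Zap70: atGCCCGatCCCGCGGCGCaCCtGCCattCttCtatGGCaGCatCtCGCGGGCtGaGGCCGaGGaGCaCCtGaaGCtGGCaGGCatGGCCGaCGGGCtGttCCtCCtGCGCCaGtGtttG

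**Figure D3:**
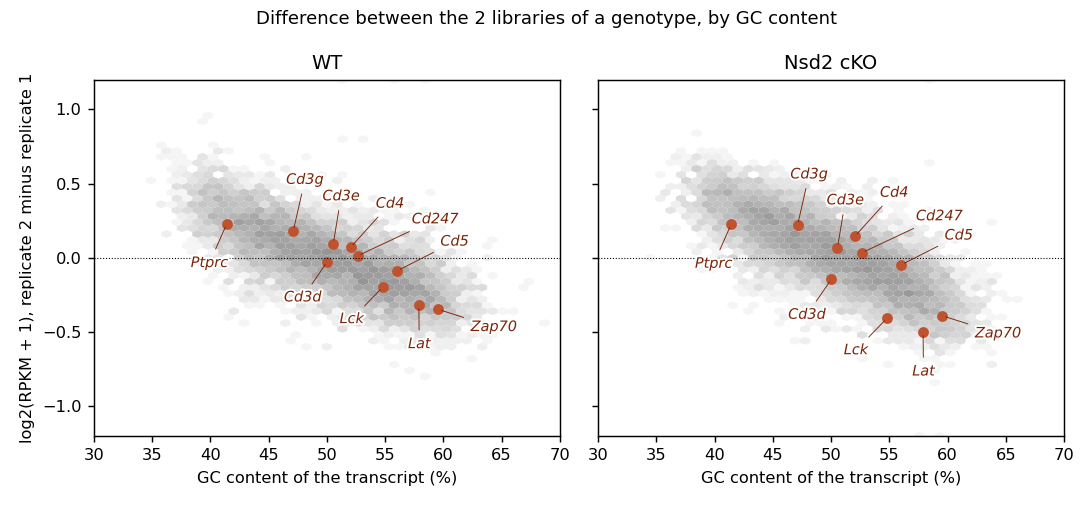
Difference in log2(RPKM + 1) between replicate 2 and replicate 1 (y axis) against transcript GC content in percent (x axis), for WT (left) and cKO (right). Grey cells count all tested genes, with values beyond the y axis drawn at its edge and 2 genes beyond the x axis left out, and the 10 members are in colour. The members slope the same way as the other genes, with Ptprc at the high end and Lat and Zap70 at the low end in both genotypes.

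When the trend on GC content was removed from each library, a step added after the data were seen, the members' order by difference shifted. The median absolute difference between the 2 libraries over the members went from 0.14 to 0.10 in WT and from 0.18 to 0.11 in cKO. Zap70 then had a log2 fold change of -0.17 (SE 0.09, limma unadjusted p = 0.0969, adjusted p = 0.643), and both cKO values were below both WT values, against 19.5% of all genes. Cd3g had 0.12 (SE 0.09), with both cKO values above both WT values, against 19% of all genes. Cd5 had 0.09 and Cd247 had 0.00, and the groups of both then overlapped. The value of Lat was -0.15 (SE 0.11) and that of Lck -0.04. Of the 10049 genes in this fit 0% were called, and 891 had an unadjusted p under 0.05.

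Around these 10 genes, 94 other genes of the pathway were taken in 5 lists by role, and 92 of them were tested. With limma, 0 of the 92 passed at an adjusted p of 0.05. Before adjustment 2 of the 92 were under 0.05, against 332 of all 10688 genes tested. Groups did not overlap on the higher side for 14 genes (15.2%, against 17.4% of all genes) and on the lower side for 15 (16.3%, against 9.06%). The share of all genes moved to 19% on the higher and 19.5% on the lower side after GC correction. Shares of the lists, here and below, are from the values before this correction and were not taken after it. Their median log2 fold change was 0.01.

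The list of kinases next to the receptor and their regulators had a median of -0.01. Of its 22 genes, 2 were separated on the higher side and 5 on the lower side. These are 9.1% and 22.7% of the list, against 17.4% and 9.06% of all genes. Ptpn22, a phosphatase that acts on Lck, measured 53.5 and 67.0 RPKM in the WT pools and 41.0 and 50.8 RPKM in the cKO pools. Both cKO values lay below both WT values, with a log2 fold change of -0.38 (SE 0.17). It was -0.23 without WT replicate 2 or without cKO replicate 1, and -0.54 without either of the others. Cblb, a ubiquitin ligase that restrains T cell activation, measured 28.4 and 29.4 RPKM in the WT pools and 20.3 and 24.1 RPKM in the cKO pools (log2 fold change -0.37, SE 0.14). After GC correction the values were -0.40 and -0.39, with adjusted p of 0.322 and 0.262 in limma. On the other side, Ubash3b, a phosphatase that acts on ZAP-70, measured 16.0 and 14.3 RPKM in the WT pools and 20.01 and 18.3 RPKM in the cKO pools. Ptpn7 measured 62.9 and 52.1 RPKM in the WT pools and 72.9 and 63.4 RPKM in the cKO pools. Fyn, the other Src kinase of T cells, was at 120.1 to 132 RPKM, and Lck was 2.16 to 2.73 times as high.

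Among 22 adaptors tested the median was 0.00, with 4 separated on the higher and 5 on the lower side. As shares these were 18.2% and 22.7%, against 17.4% and 9.06% of all genes. Trat1, which binds the receptor complex and stabilises it, measured 55.4 and 63.3 RPKM in the WT pools and 45.4 and 51.4 RPKM in the cKO pools (log2 fold change -0.29, SE 0.14). Sh2d1a, the adaptor SAP, measured 44.99 and 42.3 RPKM in the WT pools and 36.2 and 42.0 RPKM in the cKO pools. Skap1 measured 58.9 and 57.9 RPKM in the WT pools and 61.6 and 71.4 RPKM in the cKO pools, and Sh3bp2 was at 6.65, 5.90, 7.66 and 6.71 RPKM in the same order. Lcp2, which encodes SLP-76, the partner of LAT, measured 75.2 and 77.9 RPKM in the WT pools and 79.0 and 84.1 RPKM in the cKO pools; it was named for its role, after its values were seen.

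The 13 coreceptors and accessory receptors had a median of 0.07, with 4 separated on the higher side and 1 on the lower. As shares these were 30.8% and 7.7%, against 17.4% and 9.06% of all genes. Cd9, a tetraspanin, measured 22.01 and 23.0 RPKM in the WT pools and 28.01 and 27.1 RPKM in the cKO pools (log2 fold change 0.28, SE 0.12). Cd48, a ligand of CD2, measured 62.1 and 72.3 RPKM in the WT pools and 73.2 and 89.9 RPKM in the cKO pools. Pdcd1, the inhibitory receptor PD-1, measured 38.5 and 38.4 RPKM in the WT pools and 33.3 and 32.2 RPKM in the cKO pools, the 1 gene of the list with both cKO values below (log2 fold change -0.22, SE 0.12).

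Downstream of LAT, 32 genes had a median of 0.02, with 3 separated on each side. That is 9.4% each, against 17.4% of all genes on the higher and 9.06% on the lower side. Rasgrp1, which activates Ras, measured 55.9 and 58.5 RPKM in the WT pools and 59.9 and 72.8 RPKM in the cKO pools. Mapk3, the kinase ERK1, measured 18.9 and 16.5 RPKM in the WT pools and 23.2 and 19.3 RPKM in the cKO pools. On the lower side the differences were small: Bcl10 had a log2 fold change of -0.05 and Itpr2 of -0.03. Plcg1, the phospholipase that LAT recruits, was at 66.6 to 74.6 RPKM over the 4 libraries, with overlapping groups, and was also named after its values were seen.

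**Figure D4:**
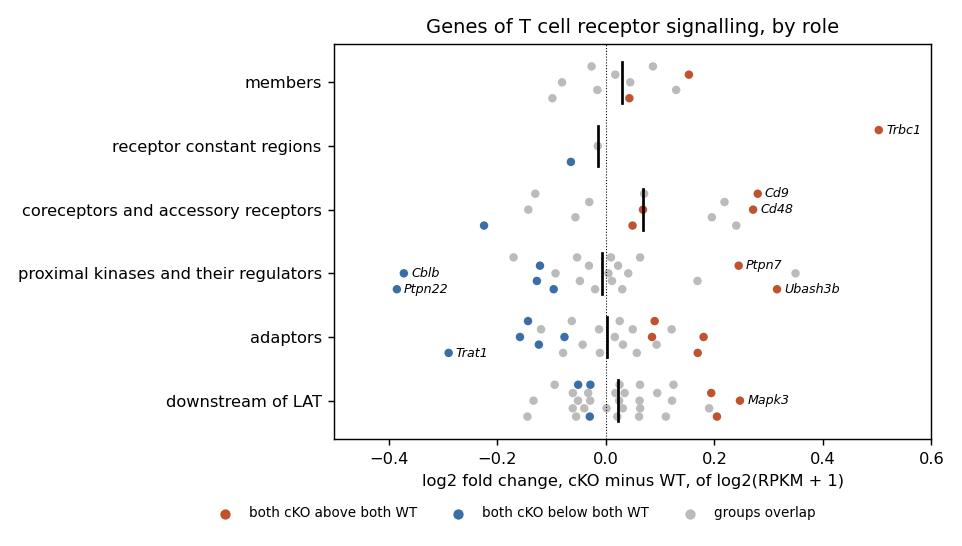
log2 fold change, cKO minus WT, on the log2(RPKM + 1) scale (x axis) for the 10 members and the 5 lists of pathway genes (rows), 1 point per gene, with a bar at each list's median. Colours mark genes whose groups do not overlap. The medians lie between -0.01 and 0.07, and Trbc1 lies farthest from 0.

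Some members are also made by other cells that a spleen sort can hold: Ptprc by all leukocytes, Cd247, Lck and Zap70 by natural killer cells, Cd5 by a subset of B cells and Lat by platelets. In a bulk sample, fewer cells of a type and less RNA per cell cannot be told apart. The summed level of 6 B cell markers was 8.75 and 7.12 RPKM in the WT pools and 12.1 and 11.3 RPKM in the cKO pools, with Cd79b the highest (5.56 and 4.23 against 8.03 and 7.14 RPKM). Of these 6, 5 had a higher mean in cKO, and Fcer2a was at 0 in WT replicate 1. Ms4a1, Pax5 and Ebf1 were not analysed here. Cd5 differed in the same direction as this sum, and the part of these markers in the result for Cd5 was not tested.

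The 8 CD8 T and natural killer markers summed to 22.8 to 25.2 RPKM, with ranges that overlapped between genotypes, and Cd8a reached at most 0.394 and Klrd1 at most 0.364 RPKM. Trdc and 4 other gamma delta T cell markers summed to 16.3 and 21.7 RPKM in the WT pools and 19.1 and 20.2 RPKM in the cKO pools. Trdc itself was lower in both cKO libraries (2.61 and 3.88 RPKM) than in WT (5.88 and 5.61 RPKM), with an adjusted p of 0.9998 in limma. The 11 myeloid markers summed to 22.8 RPKM in cKO replicate 1 and to 7.06 to 11.5 RPKM in the other libraries, and C1qa was highest there, at 6.06 RPKM. The 5 erythroid and platelet markers summed to 25.3 and 43.6 RPKM in the libraries numbered 1 of WT and cKO and to 12.1 and 7.85 RPKM in those numbered 2. Itga2b, the 1 platelet gene among these 5, was at 0.534 to 0.954 RPKM. Of the 9 genes listed for these cells, Hbb-bs, Pf4, Ppbp and Gp9 were not analysed here. Lat, Lck and Zap70 were also higher in the libraries numbered 1, by the values above, and the part of those cells in it was not tested.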

How the data were processed

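RNA-seq values came from 4 tables, 1 per library, grouped by the titles in the labels. The deposited values are RPKM per RefSeq transcript, a unit read from the values, since the file headers do not name it. Per the submitters' processing notes, HISAT2, DESeq2 and the build mm10 were used, without versions or roles. The sources used here do not say how the authors divided shared reads or treated strand. The members and lists were chosen with earlier results of these data known.

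Of 19291 rows, 16717 were matched to genes by accession in a RefSeq table of GRCm38.p6, 912 by name, and 493 kept the files' name. The 1169 rows without a name (10.9% of the RPKM sum) were left out. Each gene took its row of highest mean, and the 10688 genes averaging 1 RPKM or more entered limma 3.58.1 (R 4.3.3) on log2(RPKM + 1), trend and robust, two-sided, fitting genotype alone, with p-values adjusted by Benjamini-Hochberg and a threshold of 0.05. Fold changes are on this scale, which understates changes of low genes. Intervals are 95% intervals from this fit. P-values measure the spread between pools, which may be partly technical.

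Named from each pathway list were up to 2 genes per direction with the largest difference, a mean of at least 4 RPKM and groups that did not overlap; from marker lists, the 2 of highest mean. Trac, Fyn, Lcp2, Plcg1 and further markers were added after their values were seen, and a few marker genes that the rule names are given only within sums. Depth was set from values of 0.5 to 6 reads with GENCODE M21 lengths, where 63.4% to 70.4% lay within 0.1 of a whole read and chance gives 20%. These values also set the depth, so this excess partly restates that choice. The versions of some transcripts differ, so reads per member are approximate. The median squared difference between replicates relative to counting noise was 8.76 in WT and 11.5 in cKO, where counting alone gives 0.455. Pairs across genotypes were not compared in this way. For the GC correction, added after the data were seen, a lowess trend (span 0.3) of each library's deviation from the gene mean was subtracted. The alternatives were other pseudocounts, filters and scalings, summed rows, limma without trend and robust moderation, a replicate block, and leaving out each library. The limma fit was tested on simulated data with independent noise. Those data held neither the GC trend nor the shared deviation of same-numbered libraries, so the test does not cover them.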

Additional observations from a re-analysis of the deposited data

How the results depend on the processing

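No member had an adjusted p under 0.05 in limma under any of the 15 alternatives run, where the lowest was 0.177, for Zap70 with GC correction and a replicate block. Over all genes, the number called was 0 with genotype alone in the fit and all libraries. It was 1 with the replicate block, 21 to 66 when 1 library was left out, in fits where a group of 1 borrows its spread from the other, and 70 with GC correction and the block together. Among these 70 were Nsd2 (log2 fold change -0.76, adjusted p = 0.0227 in limma) and Ptpn22 (-0.40, adjusted p = 0.0414). The labels give the libraries numbers and do not say that a number marks a shared animal or batch. Same-numbered libraries deviated together, with a correlation over genes of 0.51, and of 0.37 after GC correction.

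The number of members whose groups did not overlap was 2, and 1 with median-of-ratios or upper quartile scaling (25.8% of all genes under each). It was 4 to 8 when 1 library was left out, where 55.3% to 69.9% of all genes did not overlap. Signs turned for Lck with median-of-ratios scaling (-0.021), upper quartile scaling (-0.0056) and GC correction, with or without the block (-0.035). Leaving out single libraries gave -0.027 to 0.12 for Cd3d, -0.063 to 0.032 for Cd3e, -0.33 to 0.17 for Lat, -0.19 to 0.22 for Lck, -0.14 to 0.089 for Ptprc and -0.29 to 0.10 for Zap70, with both signs in each. Cd3g, Cd247, Cd4 and Cd5 were above 0 in all alternatives, from 0.020 to 0.239 for Cd3g, 0.0025 to 0.077 for Cd247, 0.015 to 0.159 for Cd4 and 0.093 to 0.197 for Cd5. The causes of these changes were not tested. With 2 libraries per group, differences of the size measured here could not be told from the spread between pools.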
